A study of Mus musculus with 3 samples.

Results

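The genes described here are 39 protein-coding mouse genes whose transcripts matched many small RNA reads of piRNA length in adult testis. A gene was taken where at least 1000 testis reads of 26 to 31 nt matched its annotated transcripts exactly and in sense, and at least 90% of those reads matched no other gene. Of the 21951 protein-coding genes in the annotation, 689 had 1000 or more such reads, and 43 of them met the second condition. The 39 exclude 1700006A11Rik, Asb1, Cbl and Arhgap20, the other 4 that met both. The testis reads chose the genes, so their testis level is a description and was not tested. The lowest members were Armt1 with 1082 reads, Dcaf7 with 1077 and Zfp280b with 1054, and the nearest genes below the minimum were Mief1 with 969, Ap3s2 with 910 and Zdhhc23 with 906.

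The study sequenced small RNAs of CD1 mice, an outbred strain, in 3 groups of 1 library each. The groups are mature sperm set free from the cauda epididymis and treated on ice with a detergent buffer that lyses somatic cells, adult testis, and adult uterus. The labels give no genotype, treatment or age in days beyond this. Reads were counted per distinct sequence, and a level is given as reads per 1000000 reads of the library (RPM).

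PIWI-interacting RNAs (piRNAs) are small RNAs of the germ line that guide PIWI proteins, in mouse testis chiefly MILI (Piwil2) and MIWI (Piwil1), with MILI holding the shorter and MIWI the longer ones. Most piRNAs of the adult testis come from long noncoding precursors, and a smaller set comes from messenger RNAs, above all from their 3′ untranslated regions (3′UTRs). They typically start with U. Their 3′ ends are trimmed and then methylated by HENMT1.

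The leading testis sequences below show what these reads look like. Each is the most frequent testis sequence of at most 30 nt of its gene, written 5′ to 3′ with T for U as deposited, and the capitals mark the first base and base 10. They were chosen for the genes with the most reads, for those that differ in transcript part (Cdc42ep3, Mgll, 4933414I15Rik), for a gene absent from sperm in its leading sequence (Mgat5) and for the gene whose reads mostly do not start with U (Piwil2).

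Nemp1: TcaaagaacTtgaagatcctgaagaggtgg

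Kctd7: TgatatgtaGgatccctctcagatgtcaag

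Tbl2: TgctatggaAggaaacggtagagactgc

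Ago2: TgagaaaagGaatgtgccctgagtagaagc

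Wdfy3: TttgttttcTtttcccttctgcagaaatca

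Eif4ebp2: TaaagaaacCtgtaagagaagcttgagcgg

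Cdc42ep3: TggaagtgtAggatacccgtgcagaaggtc

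4933414I15Rik: TcaatcacgTtccggacttttttaggctt

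Mgll: TgctgaatgCcgtcgcaagagtggagcgag

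Mgat5: TcagtttgtAgaatgcttgcatagcataaa

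Piwil2: GtgaaagacAtgtagaaaaaccagcgtagg

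In build GRCm38 the Nemp1 sequence lies at chr10:127698685-127698714 on the plus strand, in the last of 9 exons and 2292 nt past the stop codon. The Kctd7 sequence lies at chr5:130153371-130153400 on the plus strand, in the last of 4 exons, 764 nt past the stop codon. The Piwil2 sequence lies at chr14:70373601-70373630 on the minus strand, in the 3′UTR part of exon 23 of 23. The Cdc42ep3 sequence lies at chr17:79335533-79335562 on the minus strand, in the 5′ untranslated region (5′UTR) within exon 2 of 2. The Mgll sequence lies at chr6:88823258-88823287 on the plus strand, within the coding sequence in exon 7 of 8. The others are in 3′UTRs except that of 4933414I15Rik, which lies in its coding sequence at chr11:50942669-50942697 on the minus strand.

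Summed over the 39 genes, testis held 221221 reads, 9301 RPM (95% interval 9263 to 9340), which is 1.05% of its reads of 26 to 31 nt. Sperm held 13353 reads, 851 RPM (837 to 866), and uterus 90 reads, 5.67 RPM (4.56 to 6.97). The sperm to testis ratio of the summed level was 0.0915 (0.0899 to 0.0931), so testis was 10.9-fold higher. Intervals are exact Poisson for levels, exact Clopper-Pearson for shares and conditional exact binomial for ratios, and they cover counting error only, since PCR copies are not independent molecules and there is no replicate library. Between whole samples, fewer cells of a type and less RNA per cell cannot be told apart.

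The testis library was the deepest with 23783785 reads, of which 88.5% were 26 to 31 nt long. The sperm library had 15690722 reads with 42.3% of that length, and of the 15876066 reads of the uterus library 635704 were of that length. MicroRNA and transcript markers were compared with the labels. The 8 germ cell and testis markers summed to 3742 RPM in testis and 1183 RPM in sperm, and the 8 smooth muscle and stroma markers to 142105 RPM in uterus. Reads that match more than 1 marker gene count in each, so the smooth muscle and stroma sums of all libraries exceed the reads behind them. In uterus Mir1a-1 and Mir1a-2 had 37665 RPM each, and Mir199a-1 and Mir199a-2 28767 RPM each. Of the germ cell list, Mir34c alone gave 3523 RPM in testis and 1104 RPM in sperm, and Mir34b, Mir449a and Mir202 were also higher in testis. The transcripts Prm1, Prm2, Tnp1 and Tnp2 went the other way. They had 1.72, 19.4, 1.21 and 3.95 RPM in sperm against 0, 0.378, 0.0420 and 0.252 RPM in testis. In uterus 3 of 8 were read, at 344 RPM. The 5 epithelial markers summed to 2511 RPM in sperm, with all 5 read, against 1.35 RPM in testis, with 4 of 5 read and Mir141 at 0, and 393 RPM in uterus. The smooth muscle list gave 1440 RPM in sperm and 290 RPM in testis with all 8 read in both. The 5 leukocyte markers gave 96.5 RPM in sperm, 2.40 RPM in testis and 188 RPM in uterus, and the 3 endothelium and blood markers 15.9, 2.10 and 112 RPM. The part of these other cells in the lower sperm level of the 39 genes was not tested.

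**Figure D1:**
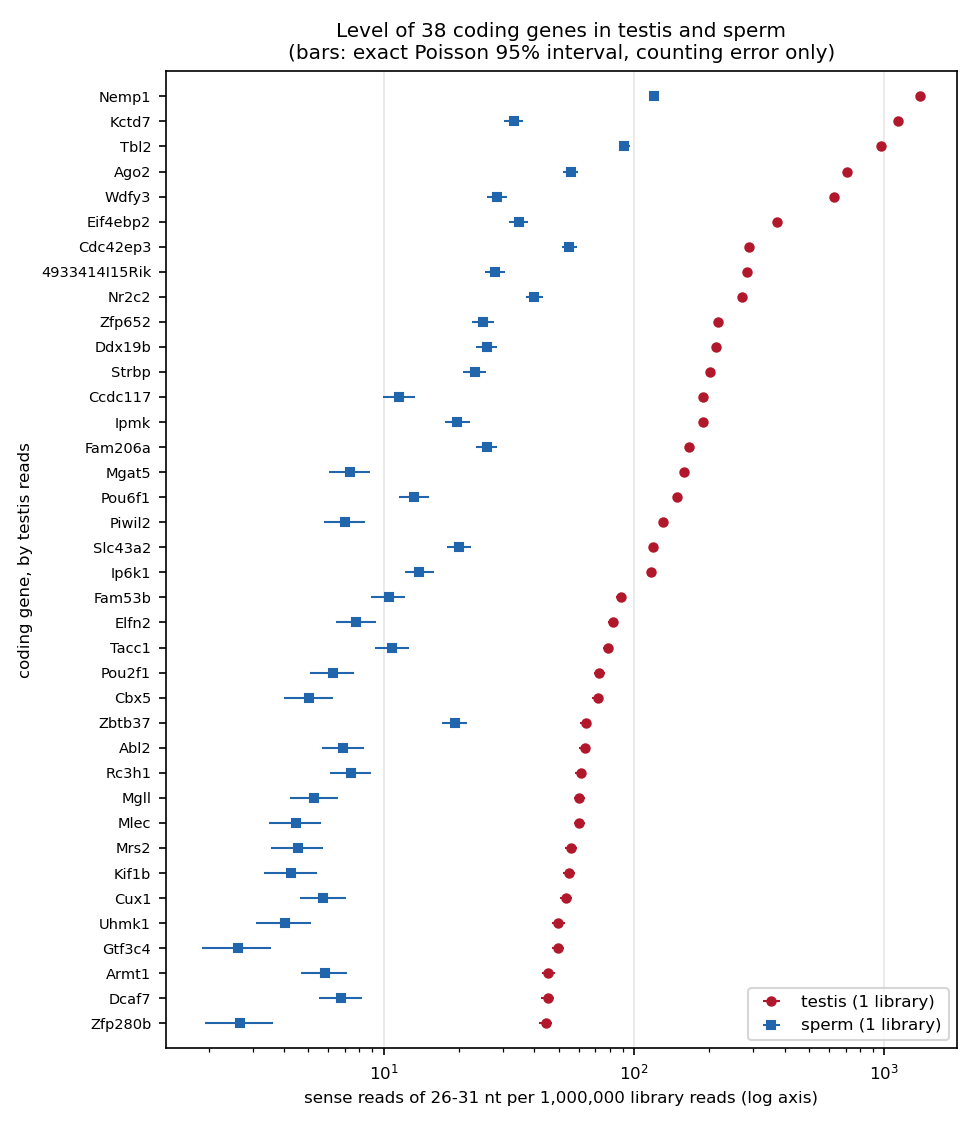
Level of 38 of the 39 genes in testis (red circles) and sperm (blue squares), in sense reads of 26 to 31 nt per 1000000 library reads on a log axis, 1 library each; bars are exact Poisson 95% intervals for counting error. Each gene lies further left in sperm than in testis, and Zbtb37 has the smallest gap and Kctd7 the widest.

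Each gene was lower in sperm than in testis, and 38 of 39 were at least 4-fold lower. Among the 4153 genes of all types with 100 or more reads over both libraries, 40.3% were at least 4-fold lower in sperm, and among the 534 coding genes of that kind whose testis reads are at least 90% their own 68.0% were lower. The rule used the testis counts, so nothing is read from these shares. The median ratio of sperm to testis was 0.0944 over the 39 genes, 0.0995 over 46 noncoding genes that meet the same rule, 0.131 over 369 coding genes with 100 to under 1000 testis reads and 0.379 over the 4153. Scaling to the trimmed mean of M values (TMM) left 11 of 39 at least 4-fold lower, beside 11.5% of the 4153, and all 39 still below testis. Counting distinct sequences in place of reads also left 11 of 39, beside 9.33% of 1587 genes.

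The genes were grouped by what their proteins do after their values were known. Genes of small RNA and mRNA control come first. Ago2, the slicing Argonaute of the microRNA pathway, had 711 RPM in testis, 55.9 RPM in sperm and 0.063 RPM in uterus, a sperm to testis ratio of 0.0786 (0.0734 to 0.0841). Its testis reads covered the long 3′UTR widely, with 1234 start positions and 23 of them needed for 50% of the reads. Piwil2, the PIWI protein MILI itself, had 131 RPM in testis, 7.01 RPM in sperm and no read in uterus (ratio 0.0537, 0.0440 to 0.0650). Its reads were the opposite in spread, since 1 of 111 start positions held 73.5% of them.

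Eif4ebp2, which binds the cap-binding factor eIF4E and represses translation, had 374 RPM in testis and 34.6 RPM in sperm. Ddx19b, an RNA helicase of mRNA export, had 213 and 25.8 RPM. Strbp, the spermatid perinuclear RNA-binding protein, had 202 and 23.1 RPM. These 3 had 3, 1 and 7 reads in uterus. Strbp stood out by position: its 3′UTR in the transcript used is 14162 nt long, and the median read began 10831 nt past the stop codon, with 90% of reads between 7070 and 12764 nt. Rc3h1, which encodes the mRNA-decay factor Roquin-1, had 61.3 RPM in testis and 7.39 RPM in sperm, and its reads were spread thinly, with the leading start at 5.14% of them.

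Genes of transcription and chromatin made up a further set. Nr2c2, an orphan nuclear receptor (TR4), had 6438 reads (271 RPM) in testis and 628 reads in sperm, a ratio of 0.148. Its ratio was 0.127 on reads that match no other gene. Zfp652, a zinc finger repressor, had 5149 reads (216 RPM) in testis and 392 reads in sperm, a ratio of 0.115. Pou6f1 and Pou2f1, POU homeodomain factors, had 148 and 72.7 RPM in testis against 13.2 and 6.25 RPM in sperm. For Pou2f1 60.2% of the sperm reads matched no other gene, and on these its ratio was 0.0518 in place of 0.0859. Abl2 and Armt1 moved likewise, from 0.109 to 0.0496 and from 0.127 to 0.0588. Cbx5, the heterochromatin protein HP1 alpha, had 71.6 and 5.03 RPM. Gtf3c4, a subunit of the RNA polymerase III factor TFIIIC, was among the 4 lowest ratios at 0.0525 (0.0375 to 0.0716), from 41 sperm reads. Zbtb37, a zinc finger gene, was the 1 member under 4-fold, with 64.1 RPM in testis and 19.2 RPM in sperm (0.300, 0.265 to 0.340). However, 35.8% of its sperm reads matched no other gene. On reads that match no other gene its ratio was 0.113 (0.0922 to 0.138), and all 39 were at least 4-fold lower, beside 81.5% of the 816 genes with 100 or more such reads. Zbtb37 and Rc3h1 are neighbours on chromosome 1, on opposite strands and 27943 nt apart.

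Among enzymes and signalling genes, Cdc42ep3, an effector of the small GTPase Cdc42, had 289 RPM in testis, 55.2 RPM in sperm and no read in uterus, at a ratio of 0.191 (0.178 to 0.205). Ipmk and Ip6k1, which phosphorylate inositol phosphates, had 189 and 117 RPM in testis against 19.7 and 13.9 RPM in sperm. Ip6k1 had the most uterus reads of any member, 13, or 0.819 RPM. Mgat5, which branches N-glycans in the Golgi, had 159 RPM in testis and 7.33 RPM in sperm, a ratio of 0.0462 (0.0380 to 0.0556). Of its sperm reads 79.1% matched no other gene, and on such reads its ratio was 0.0366. Slc43a2, an amino acid transporter, had a ratio of 0.168 (0.149 to 0.189), with 74.9% of its sperm reads on no other gene.

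Genes of membranes, protein turnover and other roles follow. Nemp1, a protein of the inner nuclear membrane, had 1386 RPM in testis, 120 RPM in sperm and 1 read in uterus. Kctd7, of the potassium channel tetramerisation domain family, had 1136 RPM in testis and no uterus read, but 518 reads in sperm against 27011 in testis, the lowest ratio at 0.0291 (0.0266 to 0.0317). Tbl2, a WD-repeat protein of the endoplasmic reticulum, had 974 and 91.6 RPM. Wdfy3, an adaptor of selective autophagy, had 627 and 28.4 RPM, a ratio of 0.0453 (0.0411 to 0.0497). 4933414I15Rik had 283 and 27.9 RPM. The intervals of Zbtb37, Cdc42ep3 and Slc43a2, among the highest ratios, all lie above those of the 4 lowest, so the spread among members is wider than counting error. On reads that match no other gene their ratios were 0.113, 0.191 and 0.126. Zbtb37 and Slc43a2 then lay below Dcaf7 with 0.149.

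Per kilobase of transcript the order differed. Kctd7 led with 265 RPM per kilobase in testis, ahead of Nemp1 with 231, and Tbl2, 4933414I15Rik and Cdc42ep3 followed with 130, 128 and 127. Zbtb37, whose 3′UTR of 16999 nt was the longest, was the lowest with 3.41.

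In uterus 11 of 39 genes had no read, which allows up to 0.189 RPM each, and 9 had more than 3 reads. The uterus reads also differed in kind: 31.1% (21.8 to 41.7) started with U and 14.4% were 29 to 31 nt long, against 92.9% (92.8 to 93.0) and 79.7% in testis and 91.3% (90.8 to 91.8) and 78.7% in sperm. The pooled sperm shares were thus slightly below those of testis, with intervals that do not overlap (78.0 to 79.4 against 79.5 to 79.9 for 29 to 31 nt), while all sperm reads of 26 to 31 nt started with U in 57.7%. By gene, the sperm U share was 80% or more in 30 of 39 and below the testis share in 24. Over reads of 20 to 34 nt of these genes, 10.6% (10.1 to 11.1) in sperm and 2.67% (2.60 to 2.73) in testis were 20 to 25 nt long. Apart from Piwil2 the sperm U share of the 26 to 31 nt reads was lowest in Kif1b, 52.2%, and Abl2, 58.3%. In these, 70.1% and 44.4% of the sperm reads matched no other gene. Of the sperm reads, 79.2% (78.5 to 79.9) had a sequence also read in testis.

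**Figure D2:**
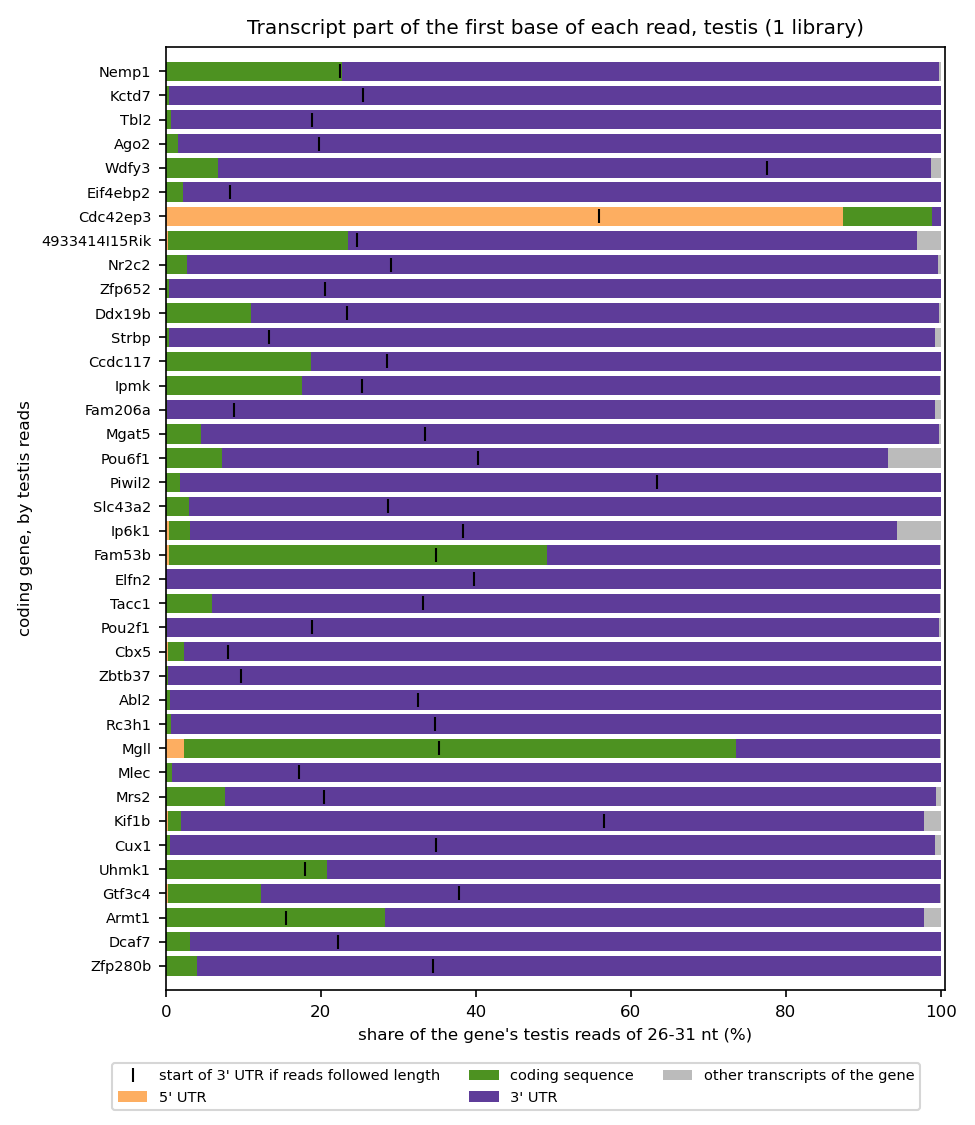
Share of a gene's testis reads of 26 to 31 nt whose first base lies in the 5′UTR (orange), coding sequence (green), 3′UTR (purple) or only in other transcripts of the gene (grey); the black tick marks where purple would start if reads followed transcript length. Purple starts left of the tick in 31 of the 38 genes drawn, and Cdc42ep3 and Mgll stand apart.

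The 3′UTR held most of the reads. In testis 88.7% (88.6 to 88.8) of reads began in the 3′UTR, 8.04% in the coding sequence and 2.76% in the 5′UTR, while these parts made up 72.0%, 24.6% and 3.37% of the length of the transcripts. In sperm the shares were 83.7%, 8.70% and 5.72%. Nearly all of the 5′UTR reads, 6097 in testis and 778 in sperm, came from Cdc42ep3, described below. The median 5′UTR share over the 39 genes was 0% in both libraries. The 3′UTR share exceeded 50% in 37 of 39 genes and was 90% or more in 27. The 3′UTRs of these genes are long, with a median of 4934 nt against 922 nt over all coding genes. The minimum of 1000 reads was not set per kilobase, which by itself favours long transcripts, so nothing is read from this difference. Within the 3′UTR the first 500 nt after the stop codon held 6.71% of reads in 8.81% of the length, and the first 1000 nt held 24.3% in 17.6%. The second share rests on Kctd7, without which it was 15.6% of reads in 17.4% of the length.

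Wdfy3 had the widest gap between share of reads and share of length, since its 3′UTR is 22.4% of the transcript and held 91.9% of its reads. Piwil2 was similar, with 36.7% of length and 98.1% of reads. The 2 exceptions to 3′UTR reads were Cdc42ep3 and Mgll. In Cdc42ep3 87.4% of testis reads began in the 5′UTR, 11.5% in the coding sequence and 1.12% in the 3′UTR, and in sperm 88.1% began in the 5′UTR. In Mgll, monoacylglycerol lipase, 71.2% began in the coding sequence, which is 24.1% of its transcript. Fam53b was close to even, with 48.8% in the coding sequence and 50.7% in the 3′UTR.

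Besides Mgll, Fam53b and Cdc42ep3, 8 genes had 10% or more of their testis reads in the coding sequence. They include Nemp1 with 22.8%, 4933414I15Rik with 23.2%, Uhmk1, a serine/threonine kinase, with 20.8%, and Armt1 with 28.3%. Reads that cross an exon junction of the transcript made up 19.1% of testis reads in Uhmk1, 17.2% in Fam53b, 12.7% in Mgll and 3.81% in Nemp1. Over all 39 genes, 9 had more than 1% of reads across a junction.

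**Figure D3:**
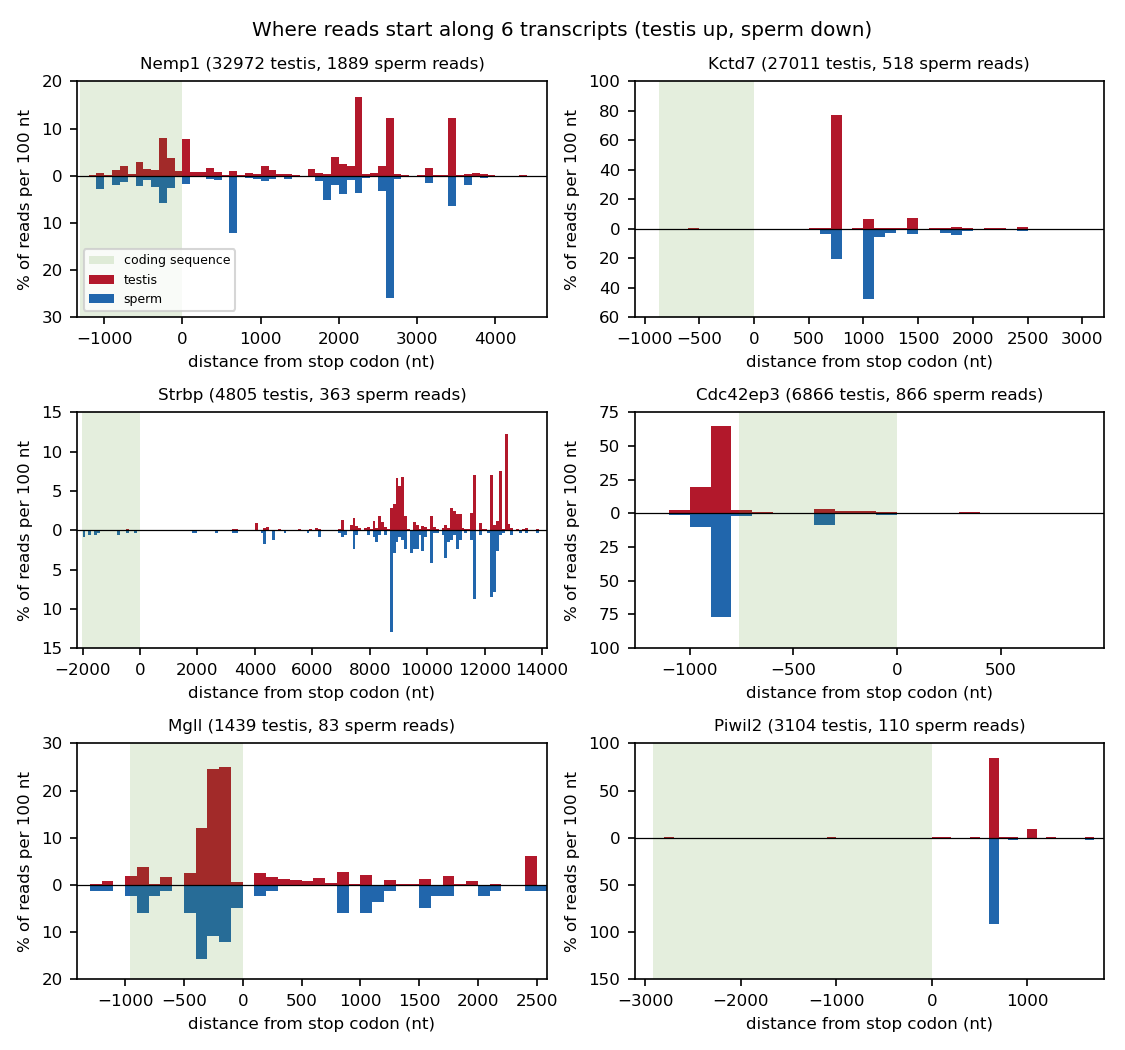
Read starts along 6 transcripts in bins of 100 nt, as a percent of the gene's reads in that library, testis above and sperm below the line; the x axis is the distance from the stop codon in nt and the green band is the coding sequence. Kctd7 and Piwil2 have 1 tall testis bin, Strbp reads begin far into the 3′UTR, and Cdc42ep3 and Mgll reads lie in the 5′UTR and coding sequence.

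Reads clustered at few starts in some genes. The leading start held over 25% of testis reads in 14 of 39 genes and over 50% in 5: Piwil2 with 73.5%, Ip6k1 with 67.9%, Mgat5 with 66.0%, Kctd7 with 60.4% and Ipmk with 52.0%. A single sequence held 44.9% of the Zfp280b reads, 42.7% of Piwil2, 39.2% of Mgat5 and 33.2% of Cdc42ep3. At the other end, Zbtb37 needed 35 starts and Zfp652 31 for 50% of their reads.

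The reads of the leading starts in sperm varied widely. These starts and sequences were chosen for their testis reads, a choice that by itself tends to lower their sperm to testis ratio, so their values are a description. The leading start of Kctd7 had 16316 reads in testis and 38 in sperm, and that of Mgat5 had 2491 and 0. The leading start of Nemp1 had 4160 and 18 reads. By contrast that of Cdc42ep3 had 2713 and 425 reads and that of Piwil2 2281 and 84, near or above each gene's own ratio, and that of Eif4ebp2 had 2501 and 149. For the leading sequence of at most 30 nt, sperm reads were below the number the gene's own ratio gives in 33 of 39 genes, and 15 had no sperm read, some of them with few testis reads. The leading Wdfy3 sequence had 2547 testis reads and none in sperm.

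**Figure D4:**
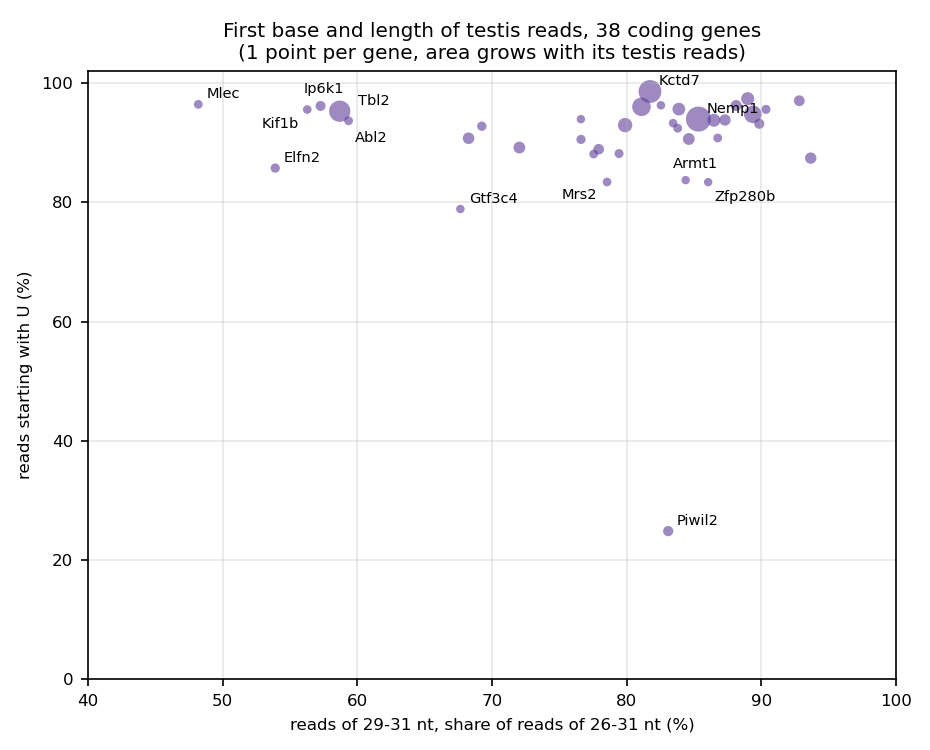
Percent of testis reads that start with U against percent of the 26 to 31 nt reads that are 29 to 31 nt long, 1 point for each of 38 genes with an area that grows with its testis reads. Piwil2 lies apart at 24.8% U, and Mlec, Elfn2, Kif1b, Ip6k1, Tbl2 and Abl2 lie under 60% of 29 to 31 nt.

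First base and length were alike over most members. The share of U starts had a median of 93.2% over the 39 genes (24.8% to 98.6%), was 80% or more in 37, and had a median of 92.7% in the 46 noncoding genes and 91.0% in the 369 coding genes with fewer reads. Kctd7 had the highest share, 98.6% (98.5 to 98.7). Counted by distinct sequences, 80.8% started with U. The base just before the reads was U in 39.8% and G in 11.9%, while U is 29.5% and G 23.2% of the bases of these 3′UTRs. The base just after the reads was U in 21.7%. Both positions were counted by reads, so starts with many reads weigh more.

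Piwil2 differed, with 24.8% U starts in testis (23.3 to 26.4) and 20.9% in sperm (13.7 to 29.7). This rests on its leading start, which begins with G. Of its distinct testis sequences, each counted once, 74.8% started with U. That start has A at base 10, as do 75.7% of all Piwil2 testis reads. In sperm the printed 30 nt sequence had 67 of the gene's 110 reads.

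The most common read length was 30 nt in 32 genes and 29 nt in 3. The share of 29 to 31 nt had a median of 81.7% (48.2% to 93.7%). It was under 60% in 6 of 39 genes (15.4%), against 33.3% of the 369 coding genes with fewer reads and 13.0% of the 46 noncoding genes. These 6 were Mlec, the sugar-binding protein malectin of the endoplasmic reticulum, with 48.2%, Elfn2 with 53.9%, Kif1b, a kinesin motor, with 56.3%, Ip6k1 with 57.3%, Tbl2 with 58.7% and Abl2, a tyrosine kinase, with 59.4%. The most common length was 26 nt in Mlec, 27 nt in Ip6k1 and 28 nt in Tbl2.

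A at base 10 was found in 32.7% of testis reads, where A is 25.1% of 3′UTR bases. The share was 33.6% in the 369 coding genes with fewer reads and 29.3% in the 46 noncoding genes. It exceeded 50% in 10 genes, among them Mgat5 with 80.4%, Ipmk with 80.3%, Piwil2 with 75.7% and Zfp280b with 72.3%. These 4 shares lean on the leading start of each gene, which has A at base 10. That start held 66.0%, 52.0%, 73.5% and 49.3% of the testis reads, in the same order. Of the 39 leading starts, 38 begin with U and 16 have A at base 10. An A at base 10 is the mark left on a piRNA made by slicing opposite a U-starting partner, and such partners overlap by 10 nt on the other strand. Antisense reads on no other gene were few, 1163 beside 221221 sense reads, and 26 of 39 genes had none. Most lay in Ago2 with 617, Elfn2 with 194, Zfp280b with 160 and Wdfy3 with 152. Summed over genes, the overlap score at 10 nt, which adds the smaller of the sense and antisense read counts of each pair, was 128 against a mean of 20.3 at the other overlaps of 1 to 26 nt. This score rests on few genes, with 44 in Zfp280b, 43 in Ago2, 22 in Wdfy3 and 12 in Elfn2. Their means at the other overlaps were 3.92, 11.7, 1.56 and 2.24. Wdfy3 had the lowest share of A at base 10 of the 39 genes, 8.57%. Ipmk had 18 antisense reads on no other gene, and Mgat5 and Piwil2 had 0. The cause of the A at base 10 in these genes was not tested.

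**Figure D5:**
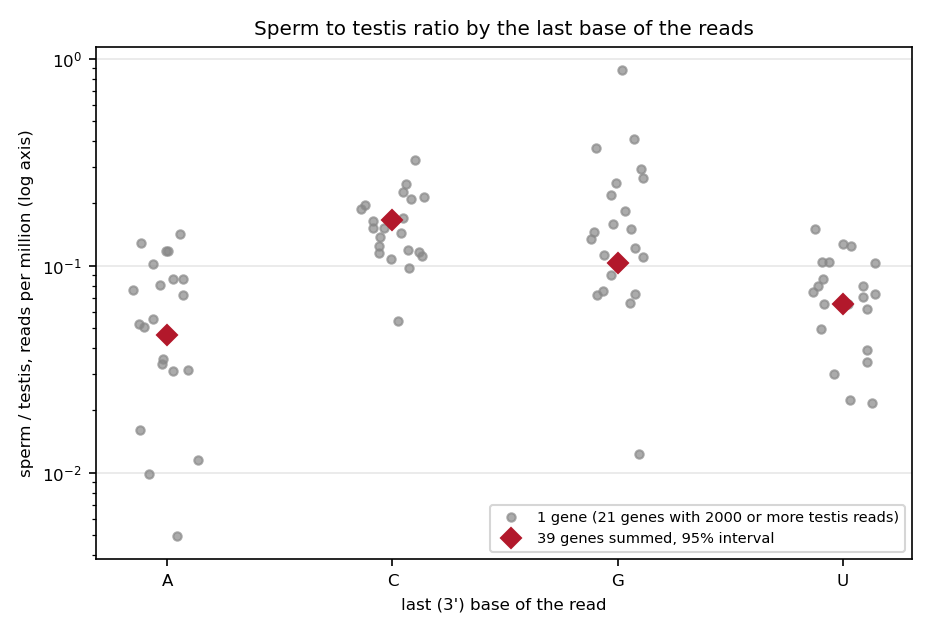
Ratio of sperm to testis level on a log axis for reads grouped by their last base; grey points are 21 genes with 2000 or more testis reads and red diamonds the 39 genes summed, with 95% counting intervals smaller than the symbols. Reads ending in C sit highest at 0.166 and those ending in A lowest at 0.0462 in the sums.

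How much of a gene's reads was found in sperm differed with the last base of the read. Over the 39 genes the sperm to testis ratio was 0.166 (0.161 to 0.170) for reads ending in C, 0.103 (0.0990 to 0.107) for G, 0.0651 (0.0626 to 0.0678) for U and 0.0462 (0.0442 to 0.0483) for A. Reads ending in C were 45.4% of sperm reads and 25.1% of testis reads, while reads ending in A numbered 2025 in sperm and 66405 in testis. The C ratio was above the A ratio in 37 of 39 genes and above the U ratio in 38, but above the G ratio in 23. The genes share their libraries, so these counts are not independent tests.

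The order of C above A held at each length from 26 to 31 nt. At 30 nt the ratios were 0.158 for C and 0.0376 for A, and at 31 nt 0.283 and 0.0417. It was also seen among reads of the same start. At 38 start positions with at least 50 testis reads of each ending, the summed ratio was 0.100 (0.0941 to 0.107) for C and 0.0112 (0.00966 to 0.0130) for A, with C above A at 25, below at 5 and both without sperm reads or equal at 8. Ipmk, chosen after its values were seen, shows it in a pair of sequences that differ by 1 base, printed with the last base in capitals.

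Ipmk ending in C: tgaagaataaagaaaaaggaatgtcgagC

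Ipmk ending in A: tgaagaataaagaaaaaggaatgtcgagcA

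The 29 nt sequence had 1137 reads in testis and 130 in sperm, and the 30 nt sequence 1176 and 3. Other genes also had a higher ratio for C than for A. In U-starting reads of the 369 coding genes with 100 to under 1000 reads the ratios were 0.166 for C, 0.139 for G, 0.0740 for A and 0.0622 for U. In the 46 noncoding genes the C and G ratios were alike, 0.155 and 0.157, above 0.108 for A and 0.0666 for U. Over all U-starting reads of 26 to 31 nt of the libraries the difference was larger, with 0.712 for C, 0.564 for G, 0.0832 for A and 0.0779 for U. How the authors trimmed the 3′ ends of the reads was not given in the sources used here, and its part in the difference by last base was not tested.

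The other genes of these pathways and classes were counted from 4 lists. Of 23 genes of the piRNA pathway, 22 had testis reads, 4 had 100 or more testis reads on no other gene (Piwil1, Piwil2, Tdrd1 and Henmt1), and Piwil2 alone is a member. Of the 7 with 100 or more reads over both libraries, 3 were at least 4-fold lower in sperm. None of 16 spermatid mRNAs is a member. With testis reads in 12 of them, they summed to 8.96 RPM in testis and 47.1 RPM in sperm, a ratio of 5.26, 21.4% of the sperm reads started with U, and 0 of the 4 with 100 or more reads were at least 4-fold lower in sperm. None of 16 general mRNAs is a member either, their summed ratio was 2.00, and 1 of 6 was at least 4-fold lower. Of 479 zinc finger genes 401 had testis reads and 3 are members, Zbtb37, Zfp280b and Zfp652, and 44 of the 87 with 100 or more reads were at least 4-fold lower in sperm, beside 40.3% of all genes.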

How the data were processed

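The authors deposited, per library, a table of distinct read sequences with whole-number read counts, with no sign of normalization. Their processing notes, per the submitters, name mm9. How reads were trimmed and size selected, and with which tools, was not given in the sources used here. A line without a sequence, 1 each in sperm and testis, was left out.

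Reads of 20 to 34 nt were matched exactly, on both strands, to the transcripts of GENCODE M21 (GRCm38). No genome was used, so matches outside annotated transcripts were not analysed here, and coordinates were not converted. A read counted once per gene, at its first position in the coding transcript with the most reads. RPM was computed from the total count of a library. A count of 0 was taken to allow 3 counts. With 1 library per group, no test was made. A ratio of 4-fold was called among genes with 100 or more reads over sperm and testis. Named genes are the 12 with the most testis reads, the 4 highest and 4 lowest ratios, members under 50% U, members mostly in coding sequence or 5′UTR, the 3 genes on either side of 1000 reads, and 4 with a single sequence over 25%. Other members are named where a count is broken down, after their values were seen. Single values of 1 member are not reported here, and it is left out of the plots, while counts and sums include it. Members and lists (piRNA pathway, spermatid mRNAs, general mRNAs, zinc finger genes and 5 marker lists) were chosen with earlier results of these data known.

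Matching used numba 0.67.0 in Python 3.11.15, tables pandas 2.3.3 with numpy 2.4.6, intervals scipy 1.17.1 and plots matplotlib 3.10.9, with edgeR 4.0.16 (TMM) and DESeq2 1.42.0 (size factors) in R 4.3.3 for scaling alone. On simulated data, 100% of 3000 exact reads were found and 0% of 1000 with a substitution. In simulated sperm against testis counts over 4153 genes, 99% of 200 genes made 8-fold lower and 0% of 3953 unchanged genes were called. These counts were Poisson, with no PCR copies and no difference in library composition, so the shares do not carry over to the real libraries.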

Additional observations from a re-analysis of the deposited data

How the results depend on the processing

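No paired analysis was possible because each group is 1 library. The number of genes, 39, was 84 with a minimum of 500 reads, 22 with 2000 reads, 18 where all reads had to match no other gene and 194 with 100 distinct sequences in place of 1000 reads; it was 36 to 43 under the other alternatives. The U share of 92.9% was 80.8% by distinct sequence, 92.3% without leading sequences, 94.2% without single-read sequences and 93.9% without Piwil2. The 3′UTR share of 88.7% was 86.4% by distinct sequence. The 29 to 31 nt share of 79.7% was 75.1% of reads of 24 to 33 nt and 64.7% by distinct sequence. The count of 38 genes at least 4-fold lower in sperm was 11 with TMM and 11 by distinct sequence, where 11.5% and 9.33% of all genes were called; it was 28 relative to reads of 26 to 31 nt (19.4%) and with DESeq2 (19.3%), 30 at 8-fold (20.0%), 39 at 2-fold (55.3%), and 38 with no minimum (14.5%) or a minimum of 1000 (65.8%), with no member 4-fold higher in sperm. The summed ratio of 0.0915 was 0.192 relative to reads of 26 to 31 nt and with DESeq2 size factors, 0.289 with TMM, 0.0953 for 24 to 33 nt, 0.0877 for reads on no other gene, 0.102 without leading sequences, and 0.0462, 0.166, 0.103 and 0.0651 for reads ending in A, C, G and U. Scaling shifted all log2 ratios by 1.07 (reads of 26 to 31 nt, DESeq2) or 1.66 (TMM). Alternatives added after seeing the data are Piwil2 left out, antisense matches, reads on no other gene, leading sequences left out the last base and Kctd7 left out, and TMM and DESeq2 for ratios. Of the 39 single ratios, 28 moved by less than their counting interval with reads on no other gene. Members with under 100 sperm reads, 11 of 39, have wide sperm intervals, and no setting replaces a replicate library.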

Other observations

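The tetramer GTAG was searched in sense after it was noticed in leading sequences. It was present in 12 of the 39 leading sequences (30.8%) and in 26.8% of the testis reads of the 39 genes, against 19.7% in the 46 noncoding genes, 16.0% in the 369 coding genes with 100 to under 1000 reads and 19.8% of all U-starting testis reads of 26 to 31 nt. By distinct sequence the shares were 14.4%, 10.3%, 14.4% and 13.5%, in the same order. Counted once per sequence, the share was thus the same as in the 369 coding genes and higher than in the noncoding genes. By reads, the share of the 39 genes leans on Kctd7. Its leading start holds GTAG and had 16316 of the 59196 testis reads with it.

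None of the 39 genes lies on chromosome X or Y. Chromosome 1 holds 6 of them, chromosomes 5, 10 and 11 hold 5 each and chromosome 15 holds 4. These counts were not set against the coding genes of each chromosome, so nothing is read from them. For each distance from a read end to a read start downstream, the smaller read count of each such pair of positions was added up. The score at distance 1 was 1.04 times the mean of distances 2 to 20, so little preference was seen.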
